A study of Mus musculus with 15 samples.

Results

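The genes described here are the fibrillar collagen genes Col1a1, Col1a2, Col3a1, Col5a1, Col5a2, Col5a3 and Col11a1, taken by symbol from a gene table of 55487 genes, of which they are 7. RNA-seq was run on female TTF cells (TTF commonly stands for tail-tip fibroblasts) with a C57BL6/CAST hybrid background. The series concerns SIRT7, a nuclear enzyme of the sirtuin family, and dosage compensation of the X chromosome. The groups were SIRT7-KO cells, with 3 libraries called KO 2, KO 9 and KO 22, and wild-type cells (genotype label S7WT_TTF), with 3 libraries called WT 1, WT 2 and WT 3. The names KO 2, 9 and 22 come from column names that match clone numbers in some sample titles, so each knockout library may stand for 1 line. This match is not certain, since the knockout samples titled in the same way as the wild-type ones carry no clone number. The KO and WT libraries may thus come from different sets of samples. The labels give no age and no treatment, and leave it unsaid whether each wild-type library had an animal or a culture of its own. The p-values therefore rest on the spread among these libraries alone, and that spread may be technical. The other 9 libraries of the 15 in the labels were not analysed here.

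Fibrillar collagens are the rope-like proteins of connective tissue. Their chains are hydroxylated and folded into triple helices in the endoplasmic reticulum, secreted as procollagen, trimmed of their end propeptides and cross-linked into fibrils. Type I collagen, built from the products of Col1a1 and Col1a2, is the main collagen of skin, tendon and bone, and fibroblasts make most of it in skin. Type III collagen is a trimer of Col3a1 chains and is found with type I in stretchable tissues. Type V chains, from Col5a1, Col5a2 and Col5a3, and type XI chains, from Col11a1, sit inside fibrils of the more abundant types and help to start and limit their growth.

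Total gene counts were 61065582 to 61506413 per library, and counts assigned to a parental genome came to 36.6% to 37.5% of these totals. Sirt7 itself had 512, 694 and 787 counts in KO 2, 9 and 22, against 833, 1107 and 598 in WT 1, 2 and 3. The groups overlapped at the Sirt7 gene, whose edgeR quasi-likelihood test gave an adjusted p of 0.515 (SE 0.27 around a log2 fold change of -0.31). A gene count does not check the genotype labels where an edit leaves the transcript in place. The biological coefficient of variation was 0.378 among KO libraries and 0.135 among WT libraries. The share of counts from genome 1 on an autosome differed by up to 31.98 percentage points among KO libraries (chromosome 11) and by at most 1.80 among WT libraries (chromosome 16). The WT libraries were thus far more alike than the KO libraries. Genotype may coincide with line and with sample set in this design, and in the comparisons that follow their effects cannot be told apart.

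Of the 7 fibrillar collagen genes, 4 were higher in KO cells: Col1a1, Col1a2, Col3a1 and Col5a2, by 1.84-fold to 2.38-fold. The other 3, Col5a1, Col5a3 and Col11a1, did not pass the test. All 7 passed the filter on low counts. Among all 16678 genes tested, 6.73% were called, 3.54% as higher and 3.19% as lower in KO cells. The 4 called genes were also those in which every KO library lay above every WT library, an arrangement found in 15.7% of all genes tested. The values are estimated counts, and a call is an adjusted p under 0.05 by edgeR's quasi-likelihood test, adjusted over all tested genes by the Benjamini-Hochberg method.

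Col1a1 (ENSMUSG00000001506, chromosome 11, 94936224 to 94953042 on the plus strand of GRCm38) encodes the alpha-1 chain of type I collagen. It had 704335, 864680 and 968527 counts in KO 2, 9 and 22, against 450877, 457475 and 454552 in WT 1, 2 and 3. The groups did not overlap, and the WT values lay close together while the KO values spread widely. Its log2 fold change was 0.93 (SE 0.13, adjusted p = 0.0175), a fold of 1.91. Col1a1 had the highest count of any gene in all 3 KO libraries and in WT 1, and the second highest, rank 2, in WT 2 and WT 3.

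Col1a2 (ENSMUSG00000029661, chromosome 6, 4504814 to 4541544 on the plus strand) encodes the partner chain, alpha-2 of type I collagen. It had 262297, 306731 and 372639 counts in KO 2, 9 and 22, against 137621, 132951 and 134449 in WT 1, 2 and 3. It had the smallest p of the 7 genes, with a log2 fold change of 1.25 (SE 0.15, adjusted p = 0.0104), a fold of 2.38. By count it ranked 8, 9 and 5 among all genes in KO 2, 9 and 22, and 21, 22 and 23 in WT 1, 2 and 3. Across the 6 libraries the log2 levels of Col1a1 and Col1a2 had a Pearson r of 0.996, given as a description since the libraries share their groups.

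Col3a1 (ENSMUSG00000026043, chromosome 1, 45311538 to 45349706 on the plus strand) encodes the only chain of type III collagen. It had 195322, 175945 and 305616 counts in KO 2, 9 and 22, against 114784, 101163 and 108237 in WT 1, 2 and 3. KO 22 was the highest, and every KO library was above every WT library. Its log2 fold change was 1.10 (SE 0.22, adjusted p = 0.0408), a fold of 2.14. A predicted gene, Gm47302, lies within Col3a1 and had 6155, 4929 and 9775 counts in KO 2, 9 and 22, against 3866, 3030 and 3533 in WT 1, 2 and 3. No source used here states how strand was handled in counting, so reads of the overlapping genes cannot be fully told apart.

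The 3 genes of type V collagen did not change alike. Col5a2 (ENSMUSG00000026042, chromosome 1, 45374321 to 45503282 on the minus strand, beside Col3a1) encodes the alpha-2 chain of type V. It had 140119, 234138 and 155173 counts in KO 2, 9 and 22, against 96066, 100522 and 97999 in WT 1, 2 and 3. KO 9 stood highest here, whereas KO 22 did so for Col1a1, Col1a2 and Col3a1. The log2 fold change of Col5a2 was 0.88 (SE 0.19, adjusted p = 0.0472), a fold of 1.84.

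Col5a1 (ENSMUSG00000026837, chromosome 2, 27886425 to 28039514 on the plus strand) encodes the alpha-1 chain of type V, the chain that most type V molecules contain. It had 106829, 137426 and 127206 counts in KO 2, 9 and 22, against 111947, 100972 and 106548 in WT 1, 2 and 3. KO 2 lay among the WT values, so the groups overlapped. Its log2 fold change of 0.25 did not pass the test (SE 0.12, adjusted p = 0.238). Col5a3 (ENSMUSG00000004098, chromosome 9, 20770050 to 20815067 on the minus strand) encodes the alpha-3 chain, found in a restricted set of tissues. It had 13321, 6400 and 8129 counts in KO 2, 9 and 22, against 8357, 4787 and 6298 in WT 1, 2 and 3. These groups overlapped too, and its log2 fold change was 0.55 (SE 0.31, adjusted p = 0.324).

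Col11a1 (ENSMUSG00000027966, chromosome 3, 114030540 to 114220718 on the plus strand) encodes the alpha-1 chain of type XI collagen, best known from cartilage. It was the least abundant of the 7, with 144, 45 and 1040 counts in KO 2, 9 and 22, against 173, 181 and 201 in WT 1, 2 and 3. A single library, KO 22, was above all WT libraries, while KO 2 and KO 9 were below them. The log2 fold change of 1.20 did not pass the test (SE 1.02, adjusted p = 0.501), and without KO 22 it was -0.96 (adjusted p = 0.234).

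The 4 calls had limits of their own. Leaving out any of the 3 KO libraries left all 4 genes called, whereas leaving out WT 1, WT 2 or WT 3 ended all 4 calls, with adjusted p between 0.0817 and 0.195 and log2 fold changes of 0.87 to 1.28. With no filter on low counts Col3a1 (adjusted p = 0.0861) and Col5a2 (adjusted p = 0.0973) were not called, and limma-voom did not call Col5a2 (adjusted p = 0.0514).

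**Figure D1:**
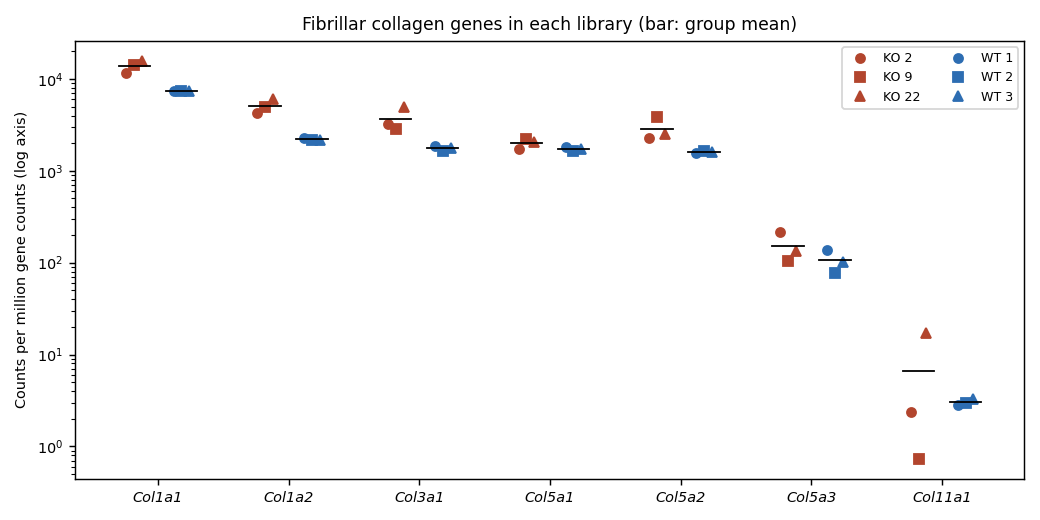
Level of each fibrillar collagen gene in each library, in CPM (counts per 1e6 gene counts) on a log axis; red symbols are the KO libraries, blue symbols the WT libraries and black bars the group means. Every KO symbol lies above every WT symbol for Col1a1, Col1a2, Col3a1 and Col5a2, and the groups overlap for Col5a1, Col5a3 and Col11a1.

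Together the 7 genes took 2.33%, 2.81% and 3.17% of all gene counts in KO 2, 9 and 22, against 1.51%, 1.46% and 1.48% in WT 1, 2 and 3. The groups did not overlap (means 2.77% ± 0.421 in KO cells and 1.48% ± 0.0224 in WT cells, SD over 3 libraries). The exact permutation test, two-sided here and throughout, gave p = 0.10, and 3 libraries against 3 cannot give less. KO 22 had the largest share and KO 2 the smallest of the KO libraries. In bulk RNA a change in the number of cells that make collagen and a change in collagen RNA per cell cannot be told apart.

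**Figure D2:**
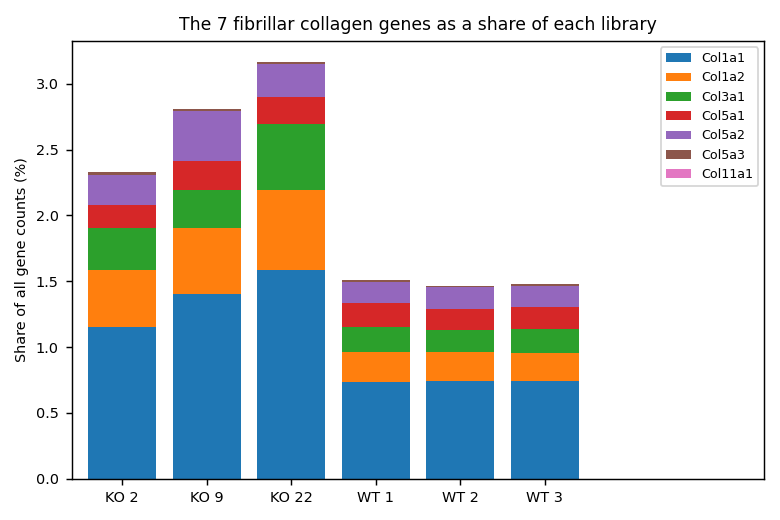
Percent of all gene counts taken by the 7 fibrillar collagen genes in each library, stacked by gene. The KO bars reach 2.33% to 3.17% and the WT bars 1.46% to 1.51%, and Col1a1 makes the largest block in each bar.

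Levels were compared between genes as CPM per kilobase of the longest coding transcript. In KO cells Col1a1 led with 2329 ± 364, followed by Col1a2 with 958 ± 169, Col3a1 with 662 ± 206, Col5a2 with 435 ± 123, Col5a1 with 240 ± 29.5, Col5a3 with 24.8 ± 9.69 and Col11a1 with 0.873 ± 1.17 (SD, n = 3). In WT cells the order of the same length-corrected levels was the same, at 1249 ± 6.09, 412 ± 8.67, 317 ± 20.9, 242 ± 4.91, 207 ± 11.3, 17.3 ± 4.84 and 0.393 ± 0.0294 (SD, n = 3). In the KO libraries the ranges of Col1a2 and Col3a1 overlapped, as did those of Col3a1 and Col5a2, and KO 9 had Col5a2 (575) above Col3a1 (514). In the WT libraries no neighbouring genes in this order overlapped. With the merged length of all annotated exons the order in KO cells was kept, but in WT cells Col1a1 (1129) was followed by Col5a1 (205), Col3a1 (180), Col1a2 (177) and Col5a2 (167), so the WT order below Col1a1 depends on the length used.

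The balance between the chains of a collagen type was compared as ratios. The ratio of Col1a1 to Col1a2, per length of the longest coding transcript, was 2.42, 2.54 and 2.34 in KO 2, 9 and 22, against 2.95, 3.10 and 3.05 in WT 1, 2 and 3. All KO ratios lay below all WT ratios, and the KO mean was 0.802 of the WT mean (exact permutation p = 0.1, the smallest possible). With the merged length of all annotated exons, which retained introns lengthen for Col1a2, the ratios were 5.11 ± 0.210 in KO cells and 6.37 ± 0.158 in WT cells, with the same quotient between groups. The type V chains differed more: the ratio of Col5a1 to Col5a2 was 0.601, 0.463 and 0.646 in KO 2, 9 and 22, against 0.918, 0.792 and 0.857 in WT 1, 2 and 3, a quotient of 0.666 (exact permutation p = 0.1). Of the 7 genes, Col5a1 thus took a smaller part of the summed length-corrected level in KO cells, at 5.21% ± 0.544, against 8.45% ± 0.339 in WT cells (SD, n = 3 each; exact permutation p = 0.1), and Col1a2 a larger part, at 20.6% ± 0.651, against 16.8% ± 0.111.

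The other balances did not separate the groups. The ratio of Col3a1 to Col1a1 per coding transcript length was 0.283 ± 0.0607 in KO cells and 0.254 ± 0.0178 in WT cells (exact permutation p = 0.5). The ratio of Col5a3 to Col5a1 gave p = 0.7 and that of Col11a1 to Col5a1 gave p = 1 by the same exact test. The part taken by Col1a1, 50.1% ± 0.557 in KO cells and 51.1% ± 0.956 in WT cells, did not separate them either (exact permutation p = 0.2). These 5 ratios and 7 shares form a family of tests in which no adjusted p can pass a threshold of 0.05, since the smallest raw p is 0.1.

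Promoter sequences are shown for Col1a2 and Col3a1, the called genes for which the RefSeq promoter table (GRCm38.p6) holds an entry, to let the start regions of chains that rose together be compared. Each runs 5′ to 3′ across the start in the RefSeq record, most of it upstream. For Col3a1 that window holds the gene start given above, whereas for Col1a2 it lies inside the gene record given above, which begins farther upstream. Capitals mark matches, read on both strands, to the letters of the CCAAT box, to the GC box GGGCGG and to the TATA box TATAAA.
Col1a2, chr6:4505368-4505667, plus strand: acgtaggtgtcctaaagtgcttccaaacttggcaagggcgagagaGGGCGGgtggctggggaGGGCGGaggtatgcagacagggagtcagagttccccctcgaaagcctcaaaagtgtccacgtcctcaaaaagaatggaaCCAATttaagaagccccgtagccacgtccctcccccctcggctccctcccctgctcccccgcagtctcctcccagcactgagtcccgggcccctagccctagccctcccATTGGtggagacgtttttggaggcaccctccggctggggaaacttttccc
Col3a1, chr1:45311288-45311587, plus strand: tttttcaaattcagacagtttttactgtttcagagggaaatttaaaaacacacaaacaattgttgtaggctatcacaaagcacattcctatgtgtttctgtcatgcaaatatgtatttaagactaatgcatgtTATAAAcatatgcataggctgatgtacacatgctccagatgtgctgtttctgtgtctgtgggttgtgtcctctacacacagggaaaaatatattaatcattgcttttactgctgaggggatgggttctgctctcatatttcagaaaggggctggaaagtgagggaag
The 2 sequences share no kind of match. The Col1a2 window had 61.0% G and C, with 2 matches to the GC box and 1 match to the CCAAT box on each strand. The Col3a1 window had 37.7% G and C and held a TATA box match alone. The CCAAT box, in either direction, occurs in 37.4% of the 32851 promoters of the table, the GC box in 35.7% and the TATA box in 13.6%. A match is a string of letters and does not show that a factor binds there.

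MicroRNAs of the miR-29 family are well known regulators of collagen RNA in fibroblasts, and they pair through a shared seed with sites in the 3′ UTR. Their mature sequences are shown because sites for them are a feature that most of these genes share; capitals mark the seed (bases 2 to 8).
mmu-miR-29a-3p: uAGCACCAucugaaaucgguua
mmu-miR-29b-3p: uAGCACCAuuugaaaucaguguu
mmu-miR-29c-3p: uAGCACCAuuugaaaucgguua
All 3 have the same seed. A site in a target carries its reverse complement, the capitals of the sites printed next. Of the longest coding transcript of each gene, the 3′ UTR held 4 such matches in Col5a1, 3 in Col5a3, 2 in Col11a1, 1 each in Col1a1, Col3a1 and Col5a2, and 0 in Col1a2. Among 20748 mouse 3′ UTRs, 13.1% held at least 1. Among other 3′ UTRs of like length, within 20% of that of the gene, a match was held by 7.63% for Col5a3, the shortest of the 7, and by 23.2% for Col5a1, the longest. At least as many matches as in the gene were held by 1.87% for Col11a1 and by 0.0% for Col5a1 and for Col5a3. Matches to only part of the seed were not counted. The 4 sites printed are from the called genes that have one and from Col5a1 for contrast, with the match in capitals.
Col1a1, chr11:94952524-94952545, plus strand: tgggaaggaatttcTGGTGCTa
Col3a1, chr1:45348968-45348989, plus strand: tcaaaatgtctcaaTGGTGCTa
Col5a2, chr1:45374965-45374986, minus strand: ttttcttttaatgaTGGTGCTa
Col5a1, chr2:28037990-28038011, plus strand: taactatgaacattTGGTGCTg
An adenine follows the match in Col1a1, Col3a1 and Col5a2, and also in 2 of the 4 sites of Col5a1 and 1 of the 3 of Col5a3, most of which are not printed. The 4 called genes had 0 or 1 match and the 3 uncalled genes 2 to 4. A call also depends on the spread and the counts of a gene. The log2 fold change was 1.25 for Col1a2 with 0 matches and 0.88 to 1.10 for the genes with 1 match. It was 1.20 (SE 1.02) for Col11a1 with 2 matches and few counts, 0.55 for Col5a3 with 3 and 0.25 for Col5a1 with 4. Over all 7 genes the fold changes thus did not fall in order of the matches. They are given as a description, with no test. The polyA libraries do not measure mature microRNAs, and whether these sites are used was not tested.

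At the level of transcripts, most counts of each gene sat in its full-length coding form. Col11a1-201, with few counts, held 93.7% ± 6.81 of Col11a1 counts in KO cells and 90.2% ± 7.57 in WT cells (SD, n = 3 each). Its lowest share was 82.7%, in WT 1. Of 34 annotated transcripts of the 7 genes, 24 passed the filter on low counts. Col1a1-201 held 99.98% of Col1a1 counts in KO cells and 99.97% in WT cells, and Col1a2-201 held 99.2% in KO cells and 99.3% in WT cells. Col1a2-201 had 260110, 304994 and 369460 counts in KO 2, 9 and 22, against 136316, 132265 and 133394 in WT 1, 2 and 3. It was the only full-length collagen transcript to pass the test over all 44821 transcripts (log2 fold change 1.26, SE 0.13, adjusted p = 0.0428 by edgeR), in which 0.335% were called and 0.154% were called as higher. Col1a1-201 had a log2 fold change of 0.94 (adjusted p = 0.0587), Col3a1-201 one of 1.11 (adjusted p = 0.154) and Col5a2-201 one of 0.89 (adjusted p = 0.211). DESeq2 called these 4 transcripts.

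Shorter forms were a small part. Col1a2-205, a short coding form chosen after its values were seen, had 1688, 1429 and 2401 counts in KO 2, 9 and 22, against 502, 446 and 636 in WT 1, 2 and 3 (log2 fold change 1.85, SE 0.27, adjusted p = 0.0862). The KO counts all lay above the WT counts, but the change did not pass the test. Col5a3-202, which retains introns, held 4.81% ± 2.53 of Col5a3 counts in KO cells and 3.80% ± 3.95 in WT cells, and Col11a1-202 held 2.55% ± 4.41 of Col11a1 counts in KO cells and 6.97% ± 7.24 in WT cells (SD, n = 3 each). Neither of these changed beyond its spread. Col11a1-205 held 2.93% ± 2.38 of Col11a1 counts in KO cells and 1.06% ± 0.459 in WT cells (SD, n = 3 each). This form, annotated as a retained intron, had 6 counts or fewer in every library and did not pass the filter on low counts. Col5a1-201 held 95.7% ± 1.48 of Col5a1 counts in KO cells and 97.8% ± 0.0858 in WT cells. Transcript values are estimates, since forms of a gene overlap and share reads.

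In a hybrid the maternal and paternal chromosomes differ at many bases, so part of the reads could be assigned to genome 1 or genome 2. No source used here says which strain stands behind which number. Of the 4 genes that rose, Col1a2, Col3a1 and Col5a2 showed a larger part from genome 1 in KO cells, while Col1a1 did not show a shift shared by the KO libraries. The ratio between the genomes was tested in an edgeR model with a term per library and an allele by group term. It called 3 of the 7 collagen genes, against 23.0% of all 12984 genes tested for it.

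The share of Col1a2 from genome 1 was 69.0%, 67.3% and 68.2% in KO 2, 9 and 22, against 45.7%, 40.7% and 42.8% in WT 1, 2 and 3. The allelic ratio was higher in KO cells by 1.50 on the log2 scale (SE 0.12, adjusted p = 0.00144). Genome 1 gave 751, 830 and 1081 CPM in KO 2, 9 and 22, against 256, 241 and 254 CPM in WT 1, 2 and 3, whereas genome 2 gave 338, 404 and 503 CPM in the KO libraries, against 304, 351 and 340 CPM in the WT libraries. Genome 1 counts of Col1a2 thus lay far above WT in every KO library, and genome 2 counts overlapped. Fitted apart, the genome 1 counts rose 3.77-fold (log2 fold change 1.91, adjusted p = 0.00475) while a log2 fold change of 0.28 in the genome 2 counts was not called (adjusted p = 0.346).

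The share of Col3a1 from genome 1 was 75.3%, 75.7% and 79.2% in KO 2, 9 and 22, against 56.7%, 56.6% and 56.4% in WT 1, 2 and 3 (log2 change of the allelic ratio 1.34, SE 0.13, adjusted p = 0.00161). The share of Col5a2 was 70.8%, 77.1% and 71.4% in KO 2, 9 and 22, against 46.9%, 47.9% and 47.1% in WT 1, 2 and 3 (1.60, SE 0.16, adjusted p = 0.00165). Neither gene had any overlap between groups; a lack of overlap was seen in 43.5% of the genes tested. Genome 1 counts of Col3a1 rose 2.89-fold (log2 fold change 1.53, adjusted p = 0.0141) and those of Col5a2 rose 3.03-fold (1.60, adjusted p = 0.0152). Genome 2 counts had log2 fold changes of 0.03 for Col3a1 (adjusted p = 0.932) and -0.21 for Col5a2 (adjusted p = 0.292), so no change from genome 2 was detected for either. The 2 genes lie side by side on chromosome 1, so their allelic values are not independent of each other.

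Col1a1 differed between the KO libraries. Its share from genome 1 was 58.3%, 29.9% and 65.5% in KO 2, 9 and 22, against 57.3%, 57.3% and 57.2% in WT 1, 2 and 3. KO 9 was far below the WT value and KO 22 above it, and the allelic ratio did not pass the test (log2 change -0.34, SE 0.55, adjusted p = 0.716). In KO 9 genome 2 carried the higher level, with 1113 CPM from genome 1 and 2608 CPM from genome 2, while in KO 22 genome 1 did, with 2821 CPM from genome 1 and 1487 CPM from genome 2. Genome 2 counts of Col1a1 passed the test (log2 fold change 1.03, adjusted p = 0.0365) and genome 1 counts did not (0.84, adjusted p = 0.103), a contrast that the allelic ratio test does not bear out as a difference.

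The remaining genes were not called in the allelic ratio. Col5a1 had genome 1 shares of 28.5%, 21.4% and 26.6% in KO 2, 9 and 22, against 29.3%, 29.0% and 28.8% in WT 1, 2 and 3 (log2 change -0.27, adjusted p = 0.313). It was the gene with the lowest genome 1 share of the 7 in KO cells, at 25.5% ± 3.65, and had 29.0% ± 0.275 in WT cells (SD, n = 3 each). Col5a3 had shares of 28.9%, 55.7% and 40.0% in KO 2, 9 and 22, against 26.0%, 25.02% and 26.1% in WT 1, 2 and 3 (1.01, SE 0.40, adjusted p = 0.137). Every KO share lay above every WT share, and without KO 2 the change passed the test (adjusted p = 0.0336). Genome 1 counts of Col5a3 rose 2.31-fold (adjusted p = 0.0231), with a log2 fold change of 0.24 for genome 2 counts (adjusted p = 0.767). Col11a1 had too few assigned counts to place its share closely, with 68, 26 and 379 from genome 1 and 10, 0 and 166 from genome 2 in KO 2, 9 and 22 (adjusted p = 0.228 for the allelic ratio). In the allele-split transcript table the full-length forms had the same pattern. Col5a2-201 had genome 1 shares of 70.8%, 77.1% and 71.4% in KO 2, 9 and 22, against 46.9%, 47.9% and 47.1% in WT 1, 2 and 3. Col1a2-201 had 68.5%, 69.5% and 67.9% in KO 2, 9 and 22, against 45.0%, 44.0% and 44.9% in WT 1, 2 and 3.

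Fitted on each genome alone, 4 of the 7 genes were called for genome 1, all as higher, against 17.9% of 12168 genes called in either direction. For genome 2, 1 of the 7 was called, as higher, against 19.0% of 12516 genes. Without WT 1, WT 2 or WT 3 these counts were 0 or 1 for genome 1 and 0 for genome 2. The 3 calls of the allelic ratio were kept whichever of the 6 libraries was left out.

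**Figure D3:**
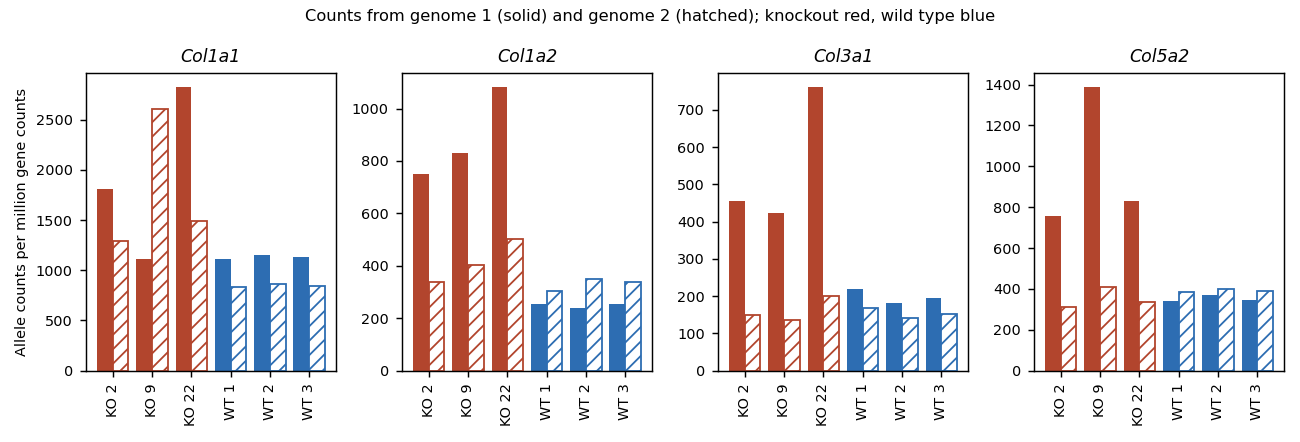
Counts assigned to genome 1 (solid bars) and genome 2 (hatched bars), in CPM of all gene counts, for the 4 called collagen genes in each library, with KO in red and WT in blue; each panel has its own axis, starting at 0. For Col1a2, Col3a1 and Col5a2 the solid KO bars stand above all WT bars while the hatched bars of the groups are closer together; for Col1a1 the taller bar is genome 2 in KO 9 and genome 1 in KO 2 and KO 22.

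The allelic shifts of the collagen genes were set beside those of other genes within 5 Mb of them. Around Col1a2, 26 other genes had enough allele counts. Their median genome 1 share was 66.9%, 71.5% and 67.2% in KO 2, 9 and 22, against 39.3%, 39.0% and 41.0% in WT 1, 2 and 3. The median log2 change of their allelic ratio was 1.53, beside 1.50 for Col1a2, and 10 of the 26 were called, all towards genome 1. Around Col3a1 the median over 24 genes was 1.50, beside 1.34 for Col3a1, and around Col5a2 it was 1.48 over 23 genes, most of them the same ones, beside 1.60 for Col5a2. In both windows 15 genes were called towards genome 1. The shift was not confined to these windows. Over chromosome 6 as a whole (613 genes) the median genome 1 share was 65.9%, 67.0% and 64.9% in KO 2, 9 and 22. In WT 1, 2 and 3 it was 37.4%, 37.8% and 37.7%. Over chromosome 1 (745 genes) it was 64.7%, 69.4% and 64.0% in KO 2, 9 and 22, against 39.2%, 39.7% and 39.3% in WT 1, 2 and 3. The shift of genome 1 share at these 3 collagen genes thus lay within the middle of the distribution of their surroundings (quartiles -0.05 to 1.74, 0.86 to 1.73 and 0.84 to 1.70).

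The same held where the KO libraries differed. Around Col1a1, 117 genes had a median genome 1 share of 58.3%, 31.8% and 65.1% in KO 2, 9 and 22, against 59.7%, 60.6% and 60.0% in WT 1, 2 and 3, close to the shares of Col1a1 itself in each KO library. Over chromosome 11 as a whole (1033 genes) the median was 59.2%, 32.5% and 64.6% in KO 2, 9 and 22. In WT 1, 2 and 3 it was 59.2%, 59.3% and 59.0%. Around Col5a3 the median log2 change was 0.92 over 76 genes, beside 1.01 for Col5a3, and around Col5a1 it was -0.17 over 160 genes, beside -0.27 for Col5a1. Col5a1 kept a low genome 1 share of its own, since its surroundings had 62.8%, 49.9% and 59.1% in KO 2, 9 and 22, and 61.4%, 61.0% and 60.1% in WT 1, 2 and 3. Only Col11a1, with few counts, had a change (1.81) above the upper quartile of its surroundings (1.04).

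Total levels of the surrounding genes were described in the same windows. The median log2 fold change of total gene counts over the tested genes within 5 Mb was 0.12 for the surroundings of Col1a2 (30 genes), 0.27 for Col3a1 (31 genes), 0.32 for Col5a2 (30 genes) and 0.04 for Col1a1 (138 genes), beside 1.25, 1.10, 0.88 and 0.93 for the collagen genes themselves. Around Col5a1 it was -0.11 (202 genes), around Col5a3 0.06 (90 genes) and around Col11a1 -0.12 (28 genes), beside 0.25, 0.55 and 1.20. All 5 called genes around Col1a2 were higher in KO cells, as were all 3 around Col3a1 and all 3 around Col5a2. The windows of Col3a1 and Col5a2 overlap for the most part, so their counts are not independent. Over all genes tested, 6.73% were called, 3.54% as higher and 3.19% as lower. Around Col1a1 4 of 8 called genes were higher, around Col5a1 2 of 7, around Col5a3 4 of 6 and around Col11a1 0 of 2. Taking out the median of the chromosome left log2 fold changes of 1.24, 1.01, 0.79 and 0.92 for Col1a2, Col3a1, Col5a2 and Col1a1. The median change in total level of the surrounding genes was smaller than the change of the collagen gene in each of the 7 windows. A median over many genes can lie close to no change while single genes among them change. The medians therefore do not show whether a collagen gene stood out from the spread of its surroundings. What part the chromosome background of each library had in the collagen levels was not tested.

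**Figure D4:**
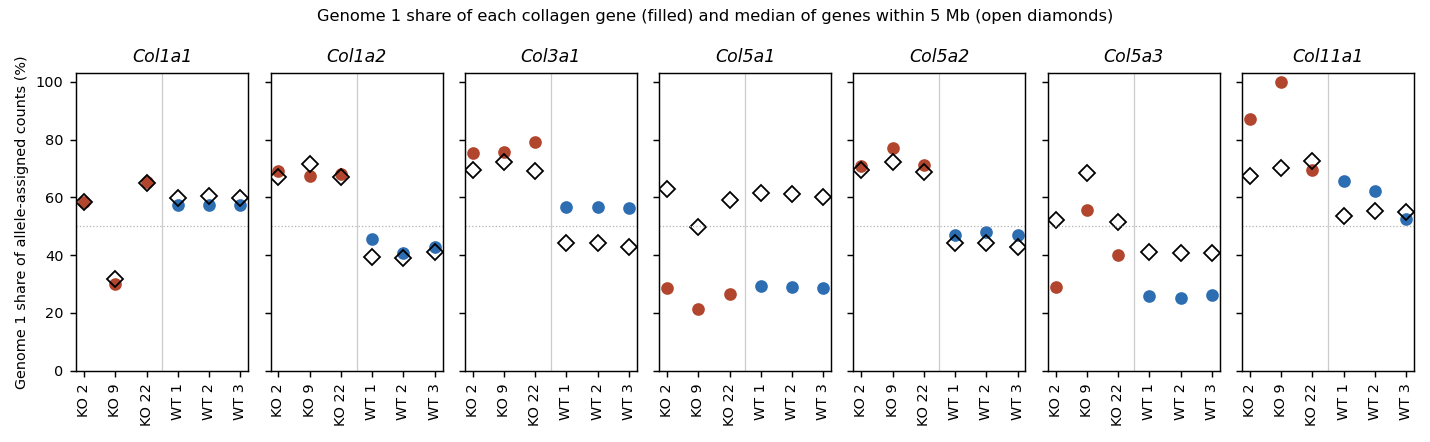
Percent of allele-assigned counts from genome 1 in each library for each collagen gene (filled circles, KO red, WT blue) and the median of other genes within 5 Mb (open diamonds). Circles and diamonds move together for Col1a1, including the drop in KO 9 to 29.9% and 31.8%, and for Col1a2 and Col5a2; Col5a1 lies below its surroundings in all 6 libraries.

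Genes that serve collagen production were described as lists, chosen for their known roles, by how many members passed the edgeR test and by the median log2 fold change; over all genes tested the median was 0.02, with 3.54% called as higher and 3.19% as lower. Of 14 tested genes of collagen hydroxylation and glycosylation, 1 was higher and 0 were lower in KO cells, with a median of 0.41. The called member was P4ha1, a catalytic subunit of prolyl 4-hydroxylase, which makes the triple helix stable. It had 358, 285 and 307 CPM in KO 2, 9 and 22, against 183, 229 and 207 CPM in WT 1, 2 and 3 (log2 fold change 0.65, SE 0.12, adjusted p = 0.0332). Every KO value was above every WT value.

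Of 23 genes of collagen folding and export, 3 were higher and 0 lower, with a median of 0.25. All 3 act where cargo leaves the endoplasmic reticulum, Sec23a and Sec31a in the coat that carries it. Sec23a, of the inner coat, had 118, 136 and 157 CPM in KO 2, 9 and 22, against 78.9, 81.5 and 83.6 CPM in WT 1, 2 and 3 (log2 fold change 0.78, adjusted p = 0.0261). Sec31a, of the outer coat, had a log2 fold change of 0.49 (adjusted p = 0.0324) and Tfg, which organises the exit sites, one of 0.53 (adjusted p = 0.0355). With no filter on low counts Sec23a (adjusted p = 0.0543 by edgeR), Sec31a (0.0645) and Tfg (0.0677) were not called. Tfg was also not called without KO 2 (0.0515) or KO 9 (0.0534). The collagen chaperone gene Serpinh1, chosen after its values were seen, had 571, 687 and 645 CPM in KO 2, 9 and 22, against 509, 483 and 466 CPM in WT 1, 2 and 3. Its log2 fold change of 0.42 was not called (adjusted p = 0.0630 by edgeR). Larp6 of the same list, chosen in the same way, went the other way, with 0.933, 0.260 and 3.61 CPM in KO 2, 9 and 22. WT 1, 2 and 3 had 7.17, 7.47 and 6.49 CPM of Larp6. The Larp6 log2 fold change of -2.09 was not called (adjusted p = 0.173 by edgeR).

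Of 7 tested genes of procollagen processing, 2 were higher and 0 lower, with a median of 0.33. Adamts2, the protease that removes the amino-terminal propeptide of types I and III, had 113, 148 and 113 CPM in KO 2, 9 and 22, against 66.1, 60.5 and 61.5 CPM in WT 1, 2 and 3 (log2 fold change 1.02, SE 0.13, adjusted p = 0.0135). Bmp1, the protease for the carboxy-terminal propeptide, had 188, 245 and 223 CPM in KO 2, 9 and 22, against 126, 155 and 149 CPM in WT 1, 2 and 3 (0.64, SE 0.14, adjusted p = 0.0444). For both the KO values lay above all WT values. The Bmp1 call was lost when low counts were kept in (adjusted p = 0.0880), without KO 9 (0.0719) or KO 22 (0.0551), and without any of the WT libraries (0.158 to 0.191). Other proteases of this list, chosen after their values were seen, were not called: Adamts14 (log2 fold change 0.06, adjusted p = 0.886) and Tll1 (0.98, adjusted p = 0.481).

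None of the 5 lysyl oxidases, the enzymes that start cross-linking, was called by edgeR, DESeq2 or limma-voom (count of 0 in each), with 1 at an unadjusted p under 0.05 and a median of 0.05. With a library left out, edgeR called 1 of them without KO 9 and 2 without KO 22. Loxl2, chosen after its values were seen, had 54.5, 49.6 and 0.474 CPM in KO 2, 9 and 22, against 399, 383 and 396 CPM in WT 1, 2 and 3. Every KO value was far below every WT value, but KO 22 stood apart from KO 2 and KO 9, and the log2 fold change of -3.48 was not called (SE 1.25, adjusted p = 0.141).

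Of the fibril-associated collagens, 4 of 10 listed genes were tested and 0 were called by edgeR, with 1 at an unadjusted p under 0.05, 1 by DESeq2, 0 by limma-voom and a median of 0.30. Col12a1, which binds type I fibrils, had 401, 603 and 658 CPM in KO 2, 9 and 22, against 329, 306 and 324 CPM in WT 1, 2 and 3 (log2 fold change 0.83, adjusted p = 0.0564). Of the other fibrillar collagens, Col2a1, Col11a2 and Col27a1 were tested and 0 were called by edgeR, DESeq2 or limma-voom, with 1 at an unadjusted p under 0.05. The gene of type II collagen, Col2a1, the main collagen of cartilage, stayed under 1 CPM in all 6 libraries.

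Of 19 genes for matrix proteins that bind fibrils, 3 were higher and 2 lower, with a median of 0.83. The 3 that rose encode small leucine-rich repeat proteins that coat collagen fibrils. Ogn (osteoglycin) had 135, 401 and 337 CPM in KO 2, 9 and 22, against 39.9, 59.6 and 55.2 CPM in WT 1, 2 and 3 (log2 fold change 2.54, SE 0.42, adjusted p = 0.0251). Aspn (asporin) had 72.0, 280 and 298 CPM in KO 2, 9 and 22, against 26.9, 34.1 and 29.8 CPM in WT 1, 2 and 3 (2.88, SE 0.53, adjusted p = 0.0320). Bgn (biglycan) had 1944, 2999 and 3220 CPM in KO 2, 9 and 22, against 1235, 1274 and 1343 CPM in WT 1, 2 and 3 (1.12, SE 0.20, adjusted p = 0.0306). For all 3 the lowest KO library was KO 2, as for Col1a1 and Col1a2. With no filter on low counts Ogn (adjusted p = 0.0543 by edgeR), Aspn (0.0672) and Bgn (0.0645) were not called. Aspn (0.0574) and Bgn (0.0560) were also not called without KO 9.

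The 2 that fell were Tnxb and Thbs2. Tnxb, which encodes tenascin-X, a protein that spaces collagen fibrils in skin, had 2.88, 1.82 and 2.11 CPM in KO 2, 9 and 22, against 10.7, 8.79 and 9.84 CPM in WT 1, 2 and 3 (log2 fold change -2.08, SE 0.22, adjusted p = 0.00766). Thbs2, which encodes thrombospondin 2, had 95.9, 146 and 170 CPM in KO 2, 9 and 22, against 394, 376 and 384 CPM in WT 1, 2 and 3 (-1.45, SE 0.22, adjusted p = 0.0194). The list thus held calls in both directions. Decorin, from Dcn, another protein of fibril surfaces, differed between KO libraries, with 194, 16.4 and 145 CPM in KO 2, 9 and 22, against 132, 118 and 127 CPM in WT 1, 2 and 3 (adjusted p = 0.973 by edgeR).

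Of 8 tested collagen receptors, 2 were higher and 0 lower, with a median of 0.38. Adgrg6, an adhesion receptor that binds type IV collagen, had 104, 109 and 146 CPM in KO 2, 9 and 22, against 26.1, 24.0 and 25.3 CPM in WT 1, 2 and 3 (log2 fold change 2.28, SE 0.16, adjusted p = 0.00244). Itgb1, the beta chain of the collagen-binding integrins, had 1625, 1867 and 1782 CPM in KO 2, 9 and 22, against 1027, 1133 and 1093 CPM in WT 1, 2 and 3 (0.73, SE 0.09, adjusted p = 0.0125). Of the 17 called list genes, Adgrg6 was the only one that stayed called without each of WT 1, WT 2 and WT 3 in turn.

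Of 16 tested genes of collagen degradation and uptake, 0 were higher and 1 was lower, with a median of -0.14. Timp3, an inhibitor of metalloproteinases, had 585, 585 and 534 CPM in KO 2, 9 and 22, against 1025, 1017 and 1033 CPM in WT 1, 2 and 3 (log2 fold change -0.82, SE 0.07, adjusted p = 0.00508). The called member of this list was thus an inhibitor of breakdown and not an enzyme that carries it out. The groups did not overlap for 5 of the 16, and for 5995 of all 16678 genes tested. Among uncalled enzymes, chosen after their values were seen, Mmp14 was higher in every KO library (log2 fold change 0.43, adjusted p = 0.118 by edgeR). Mmp2 (-0.98, adjusted p = 0.316), Ctsl (-0.18, 0.431) and Plau (-0.32, 0.436) were lower in every KO library.

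Of 42 tested regulators of collagen gene transcription, 2 were higher and 1 lower, with a median of -0.01. Scx, a transcription factor of tendon cells known to act on type I collagen genes, had 35.4, 46.9 and 21.9 CPM in KO 2, 9 and 22, against 5.45, 6.59 and 6.55 CPM in WT 1, 2 and 3 (log2 fold change 2.51, SE 0.28, adjusted p = 0.00915). Mkx, another tendon factor, had 5.22, 3.84 and 5.57 CPM in KO 2, 9 and 22, against 1.69, 1.53 and 1.69 CPM in WT 1, 2 and 3 (1.61, SE 0.22, adjusted p = 0.0155). Klf4, a factor known to repress growth and matrix genes in several cell types, had 13.9, 20.04 and 11.4 CPM in KO 2, 9 and 22, against 59.3, 65.0 and 65.1 CPM in WT 1, 2 and 3 (-2.03, SE 0.21, adjusted p = 0.00739). The groups did not overlap for any of the 3. Of 7 genes of TGF-beta ligands and SMAD proteins, which carry or, for Smad7, restrain a signal known to activate collagen genes, edgeR and limma-voom called 0 and DESeq2 called 1 as higher, with 1 at an unadjusted p under 0.05 in edgeR. That gene, chosen after its values were seen, was Tgfb2, with 32.6, 27.8 and 43.1 CPM in KO 2, 9 and 22, against 19.3, 23.3 and 21.8 CPM in WT 1, 2 and 3. Its groups did not overlap, and its log2 fold change was 0.72 (SE 0.19, adjusted p = 0.0713 by edgeR). Tgfb1, chosen in the same way, did not overlap either but was lower in KO cells. It had 39.6, 57.2 and 39.3 CPM in KO 2, 9 and 22, against 60.0, 58.2 and 58.9 CPM in WT 1, 2 and 3. The Tgfb1 log2 fold change of -0.35 was not called (adjusted p = 0.229 by edgeR).

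**Figure D5:**
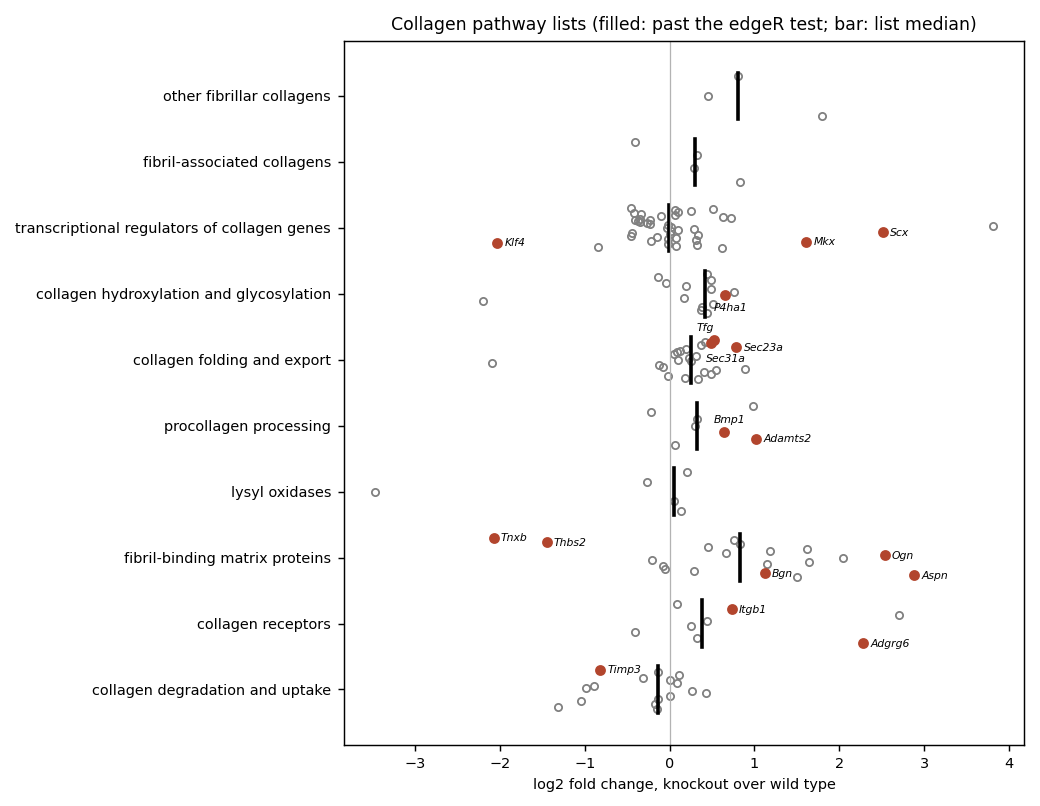
Log2 fold change of each tested gene of the 10 lists, KO over WT; filled red circles are genes with an adjusted p under 0.05, open circles the others, and black bars the list medians. The called genes lie to the right of 0 except Klf4, Tnxb, Thbs2 and Timp3, and the median of the list of fibril-binding matrix proteins is 0.83.

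The genes whose levels ran most like each collagen gene over the 6 libraries were taken from 9041 tested genes with a mean of at least 10 CPM, by Pearson r of log2 CPM, as a description. For Col1a1 they were Mfge8 (r = 0.9996), Tbc1d8b (0.9984) and N4bp2 (0.9979), and for Col1a2 Tbc1d8b (0.9984), Arhgef25 (0.998) and Mfge8 (0.9967). The genes of the 2 type I chains thus shared Mfge8 and Tbc1d8b. For Col3a1 they were Dcaf5, Pdlim5 and Pdgfb, for Col5a2 Cap1, Pappa and Fam219a, for Col5a1 Rnf166, Emc10 and Slc27a3, for Col5a3 Rex1bd, Gna11 and Zdhhc8, and for Col11a1 Slco3a1, Vcam1 and Ndrg3, with r between 0.9679 and 0.998. With 6 libraries and this many candidates, values near 1 are found for every gene. Among the collagen genes themselves r was 0.956 for Col1a2 with Col3a1, 0.884 for Col1a1 with Col5a2 and 0.678 for Col3a1 with Col5a2, and Col11a1 had r of 0.491 or less with each of the others.

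Markers were counted to see which cells the libraries held. All 12 fibroblast markers were detected, with a summed level of 7881 to 8772 CPM in KO libraries and 6051 to 6411 CPM in WT libraries; 0 were called as higher and 1, Pdpn, as lower. Most of this sum came from Vim, Col6a1 and Col6a2, which had higher KO means, as had Lum and Mfap5. Pdgfra, Pdgfrb, Thy1, Fap, Dcn, Fbln1 and Pdpn had lower KO means. Pdpn averaged 0.0544 CPM in KO cells and 3.98 CPM in WT cells (log2 fold change -6.11, adjusted p = 0.00101 by edgeR). Fbln1 averaged 203 ± 78.7 CPM in KO cells and 407 ± 9.63 CPM in WT cells (SD, n = 3 each), with no overlap. Thy1 differed between KO libraries, with 21.6, 0.195 and 71.5 CPM in KO 2, 9 and 22, against 101, 98.6 and 98.9 CPM in WT 1, 2 and 3. The 6 smooth muscle markers, which myofibroblasts share in part, summed to 11330 to 16559 CPM in KO libraries and 9048 to 9930 CPM in WT libraries; Actg2 and Myh11 were called as higher and Cnn1 as lower. The 6 osteoblast or tendon markers summed to 22.4 to 47.2 CPM in KO libraries and 5.58 to 6.92 CPM in WT libraries, nearly all of it Scx, with Tnmd at 0.179 CPM or less and Ibsp at 0 in all 6. The 6 skeletal muscle markers summed to 49.3 to 112 CPM in KO libraries and 18.1 to 21.7 CPM in WT libraries, nearly all of it Acta1, with Myod1, Myog and Pax7 at 0. The 6 chondrocyte markers summed to 9.61 to 24.0 CPM in KO libraries and 9.22 to 10.6 CPM in WT libraries, with Col9a1 at 0, and the 4 adipocyte markers to 4.72 to 40.0 CPM in KO libraries and 16.6 to 21.6 CPM in WT libraries. Keratinocyte, endothelial and blood markers summed to 6.22 CPM or less in every library, and the 5 Schwann or melanocyte markers to 5.83 to 10.1 CPM in KO libraries and 14.7 to 16.7 CPM in WT libraries. The part that these marker differences had in the collagen levels was not tested.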

How the data were processed

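Per the labels' protocols, a provider sequenced polyA RNA. Estimated counts were deposited for genes and for transcripts, both over all reads and split by parental genome; the submitters' processing notes list HISAT2 2.1.0, StringTie 1.3.3 and DESeq2 1.32.0 with GRCm38, without roles. No source used here states the strand or counter settings. Being whole numbers, the deposited values needed no rounding, and 12 columns of reads assigned to neither genome were not used. Total counts were 61065582 to 61506413 per library, and 55227 of 55487 genes matched GENCODE M21.

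KO was set against WT in edgeR 4.0.16 under R 4.3.3: quasi-likelihood test, TMM scaling, default filter on low counts, Benjamini-Hochberg adjustment over all tested features, threshold 0.05. CPM are counts per 1e6 gene counts. For the allelic test a gene needed a mean of 20 or more counts assigned to either genome. Each standard error was obtained from the fold change (log2) and the F statistic, as their quotient after taking the root of F. Alternatives were RLE factors, DESeq2 1.42.0, limma-voom (limma 3.58.1), no filter, other allele minimums, a logit model, other lengths and leaving out each library. The scripts were tested on simulated data.

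The members, gene lists and markers were chosen with earlier results of these data known. Named genes are the 7 collagen genes, their transcripts holding at least 1% of the gene's counts, called list members, and the 3 most alike tested genes per collagen gene; others are marked as chosen after their values were seen, apart from marker genes and the members of short lists.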

Additional observations from a re-analysis of the deposited data

How the results depend on the processing

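The 1123 genes called were 396 when low counts were kept in, 2895 in DESeq2, and 45 to 2482 when single libraries were left out, the low counts all coming from leaving out WT 1, WT 2 or WT 3. Of the 7 collagen genes 4 were called, 2 with no filter and 0 to 4 with a library left out. The 17 list genes called became 39 with DESeq2, of which 12 bind fibrils, 9 act in folding and export and 8 are regulators, 16 with limma-voom, 9 with no filter and 1 to 36 with a library left out. For transcripts, 150 called became 2469 with DESeq2, 41 with no filter and 0 to 137 with a library left out, and the 1 full-length collagen transcript called became 4 with DESeq2, 0 with no filter and 0 to 2 with a library left out. The 2992 genes with a called allelic ratio became 1710 to 3822 with a library left out, and 3 to 4 collagen genes were called. Within genome 1, 0 to 5 collagen genes were called with a library left out, and within genome 2, 0 to 1; scaling to all reads, an alternative chosen after seeing the data, gave 4 and 1. The Col1a1 share of the summed level, KO over WT, was 1.01 with merged exon length and 0.979 with coding length. Without KO 2 the KO over WT quotient of Col5a3 to Col5a1 was 0.915, against 1.298 with it, and without KO 22 that of Col11a1 to Col5a1 was 0.481, against 1.89. No paired analysis was possible because the KO numbers 2, 9 and 22 and the WT numbers 1, 2 and 3 share only 1 number. No called direction reversed in the alternatives run. Precision rests on 3 libraries a group, and for Col11a1 on few counts.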
